A study of Mus musculus with 2 samples.

Results

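The mesenchymal and mural genes described here are Tcf21, Pdgfra, Pdgfrb, Dcn, Lum, Postn, Acta2, Myh11, Tagln and Rgs5, which are read as markers of the capsule, stroma, smooth muscle and pericytes of the adrenal gland. They were chosen by name, without collagens and hedgehog genes, and all 10 were found among the 43346 Ensembl genes of the deposited gene tables. The study measured polyadenylated RNA from whole adrenal tissue of a C57BL/6J mouse, an adult female aged 10 weeks. RNA was extracted with the RNeasy Lipid Tissue Mini Kit and the labels give a library size range of 350 to 450. There were 2 libraries, replicate 1 and replicate 2, which the labels describe as technical replicates of 1 biological sample from 1 donor, the second made in May 2015. There is no treatment, no second genotype and no control group, so each comparison below is between these 2 libraries and says nothing about the spread between animals.

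The adrenal capsule is a thin sheet of mesenchymal cells around the steroid-producing cortex, and some of its cells contribute new cortical cells. Platelet-derived growth factor (PDGF) receptors are receptor tyrosine kinases on fibroblasts, smooth muscle cells and pericytes, and they are activated by dimeric ligands made by endothelial and other cells. Fibroblasts secrete small leucine-rich proteoglycans that bind and space collagen fibrils, smooth muscle cells contract through a smooth muscle actin and myosin, and pericytes wrap capillaries. In bulk tissue, fewer cells of a type and less RNA per cell cannot be told apart.

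The sequences that matter for reading the values are those that set apart closely related transcripts. Acta2, the smooth muscle alpha-actin, has close paralogs in skeletal muscle (Acta1) and heart (Actc1). Their coding sequences were each 1131 bases long in the GENCODE M21 transcripts of GRCm38. Acta1 was identical to Acta2 at 85.4% of coding positions and Actc1 at 82.6%. The longest run shared with Acta2 was 29 bases in Acta1 and 23 bases in Actc1. The first 60 coding bases, 5′ to 3′ on the coding strand, are shown with capitals in Acta2 where at least 1 of the other 2 differs, and capitals in the others where they differ from Acta2.
Acta2: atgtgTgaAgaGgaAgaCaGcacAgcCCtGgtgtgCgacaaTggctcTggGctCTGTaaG
Acta1: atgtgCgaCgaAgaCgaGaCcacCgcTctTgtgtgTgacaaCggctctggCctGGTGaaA
Actc1: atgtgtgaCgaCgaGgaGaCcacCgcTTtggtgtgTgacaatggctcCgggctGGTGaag
Acta1 differed from Acta2 at 17 of these 60 positions and Actc1 at 14.

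Postn encodes periostin, a secreted matrix protein whose carboxy-terminal part is assembled from alternative exons. Of its 4 full-length transcripts in GENCODE M21, which are Postn-201 to Postn-204, the longest set of exons numbers 23, and the internal exons that vary between them are exons 17 and 21. Exon 17 lies at chr3:54380412-54380492 and exon 21 at chr3:54385671-54385754, both on the plus strand of GRCm38 and both coding. They are printed because the isoform values below turn on them.
Postn exon 17: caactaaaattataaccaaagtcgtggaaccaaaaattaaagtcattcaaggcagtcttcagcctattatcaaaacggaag
Postn exon 21: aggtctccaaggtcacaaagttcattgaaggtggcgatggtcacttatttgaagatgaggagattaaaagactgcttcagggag
Exon 17 is 81 bases long, which is 27 codons, and has a GC content of 34.6%. Exon 21 is 84 bases long, which is 28 codons, and has a GC content of 44.0%.

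Library composition bears on every value that follows. The deposited expected counts, which are estimated fragments per gene, summed to 28267651 in replicate 1 and 17376660 in replicate 2. Mitochondrial genes and their 15 nuclear copies took 53.1% of the counts in replicate 1 and 15.3% in replicate 2, which left 13260900 and 14716667 nuclear counts. Levels are therefore given both as deposited TPM, a relative transcript abundance per length, and as nuclear TPM, which is the same value rescaled without those genes and copies. Cortex markers were high in sum in both libraries, where 5 of them summed to a nuclear TPM of 39800 in replicate 1 and 42515 in replicate 2. Most of this sum came from Hsd3b1 (16412 and 18061), Star (11161 and 8744) and Cyp11b1 (10688 and 8441). The other 2 differed more, with Cyp11a1 at 1501 and 6647 and Nr5a1 at 37.8 and 621. Chromaffin markers were less even in sum. The 5 of them summed to 1940 and 7288, of which Chgb made up 1735 and 3008. Chga was at 149 and 2758, Th at 39.4 and 589.7 and Dbh at 17.0 and 354. Pnmt had a count of 0 in replicate 1 and 4291 in replicate 2. The ratio between the libraries followed GC content over all 14358 genes tested, with a median log2 ratio of -1.94 at 40% GC, 0.24 at 50% and 4.46 at 60%. Ratios are accordingly given after TMM scaling of library sizes and again with the lowess trend against GC content removed.

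All 10 genes were detected in both libraries. None had a near-identical copy elsewhere among the transcripts, and all 20 count estimates were whole numbers. At a deposited TPM of at least 1, 7 of 10 were counted in replicate 1 and 10 of 10 in replicate 2. Tcf21, Pdgfrb and Myh11, at TPM values between 0.51 and 0.52, fell short in replicate 1. At a nuclear TPM of at least 1, 10 of 10 were counted in both.

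**Figure D1:**
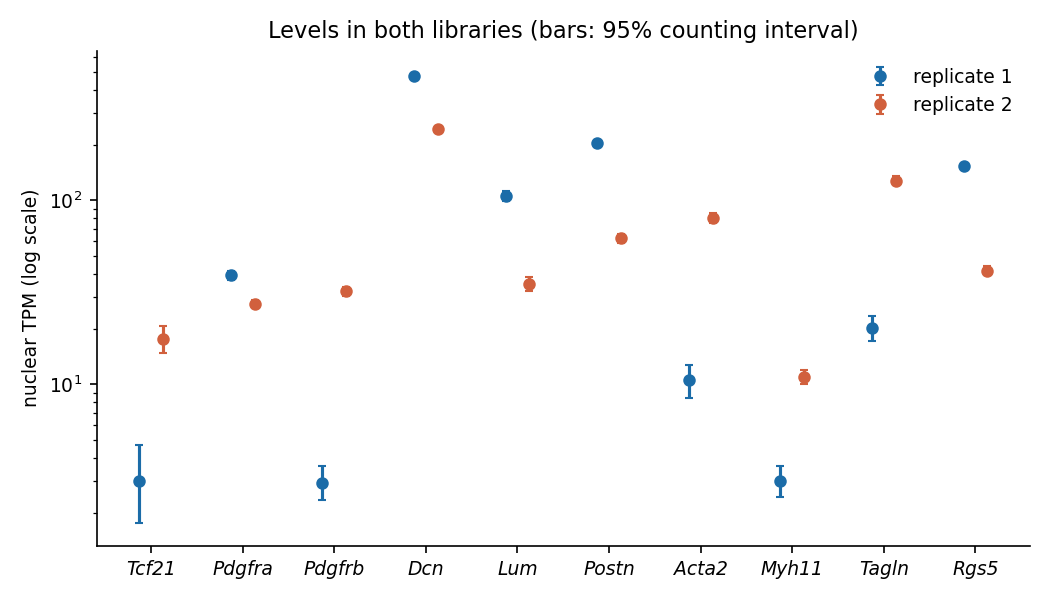
Nuclear TPM on a log scale for the 10 genes in replicate 1 (blue) and replicate 2 (orange), with bars for the 95% counting interval of the library's count. Dcn is the highest in both libraries, at 477 and 245, while Pdgfrb, Tcf21 and Myh11 are the lowest in replicate 1, at 2.92 to 2.97.

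Each gene's count was compared between the libraries with a two-sided exact binomial test, adjusted by Benjamini-Hochberg over all genes tested, and called at an adjusted p under 0.05 and at least 2-fold. Of the 10 genes, 5 were higher in replicate 2 (Tcf21, Pdgfrb, Acta2, Myh11 and Tagln), 3 were lower (Lum, Postn and Rgs5) and 2 were not called (Pdgfra and Dcn). Over all genes tested, 36.4% were called higher and 27.8% lower, so calls in both directions were frequent. With library sizes scaled to total counts instead, which moved the median of all genes by 1.14 on the log2 scale, 5 of the 10 were called higher and 0 lower, and over all genes tested 7769 were called higher and 567 lower in place of 5232 and 3987. The 10 genes had a median log2 ratio of 0.65, beside 0.10 over all genes tested, whose quartiles were -1.12 and 2.10.

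Genes of low and high GC content differed in direction. The 4 genes under 45% GC (Dcn, Lum, Postn and Rgs5, at 40.1% to 41.9%) had log2 ratios from -1.92 to -0.97. Of the other 6 (49.2% to 55.0%), Pdgfra had a log2 ratio of -0.54 and the rest from 1.85 to 3.42. Across the 10 genes, which come from the same 2 libraries, Pearson's r between GC content and log2 ratio was 0.90 and Spearman's rho 0.81, given as a description. With the GC trend removed, 4 genes were higher in replicate 2 (Tcf21, Pdgfrb, Acta2 and Tagln), 0 lower and 6 not called, where 13.5% of all genes tested were called higher and 12.6% lower. The median of the 10 was then 0.68, beside -0.03 for all genes tested, whose quartiles were -0.53 and 0.56. The shares called over all genes tested, before and after removal of the trend, also stand beside each list counted below.

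**Figure D2:**
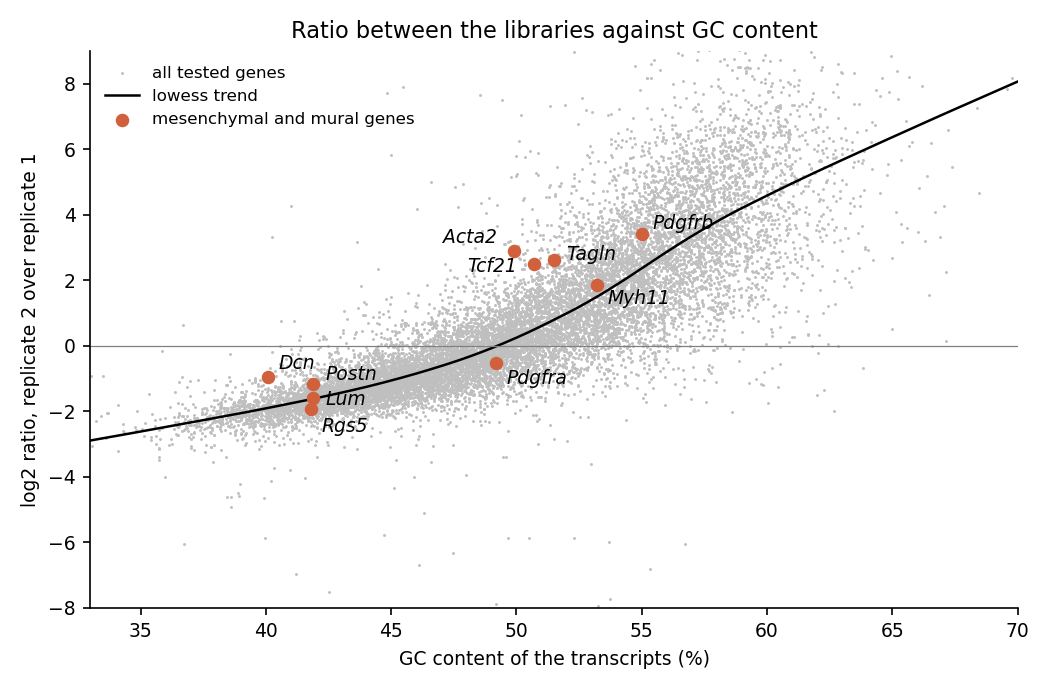
Log2 ratio of replicate 2 over replicate 1 against the GC content of each gene's transcripts for the genes tested (grey), with the lowess trend (black) and the 10 mesenchymal and mural genes (orange); 109 of the 14358 genes lie outside the axes. Acta2, Tcf21 and Tagln lie above the trend, and Lum, at 41.9% GC and -1.61, lies on it.

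Tcf21 encodes a basic helix-loop-helix transcription factor of mesenchymal progenitors that marks non-steroidogenic cells of the adrenal capsule. The gene lies on chromosome 10 from 22817281 to 22820174, on the minus strand. It had a count of 18 in replicate 1 and 140 in replicate 2, a nuclear TPM of 2.97 (95% counting interval 1.76 to 4.70) and 17.6 (14.8 to 20.8). The intervals did not overlap. Its level was 5.76-fold higher in replicate 2 (95% interval 3.51 to 10.0), with an adjusted p of 3.96e-17 in the exact binomial test. The log2 ratio was 2.49, and 2.00 once the GC trend was taken out, so the call held. It had the smallest counts of the 10 genes, and its interval was accordingly the widest.

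Pdgfra encodes the PDGF receptor of fibroblasts and mesenchymal progenitors. The gene lies on chromosome 5 from 75152292 to 75198215, on the plus strand. It had counts of 1446 in replicate 1 and 1340 in replicate 2 and a nuclear TPM of 39.1 and 27.4. The fold was 0.686 (0.637 to 0.740), which is under the 2-fold minimum in size, and the log2 ratio was -0.54 before and -0.52 after the GC trend was removed. Of the 2 transcripts counted, Pdgfra-201 held 91.29% of the gene's TPM in replicate 1 and 96.31% in replicate 2, and Pdgfra-202 the rest.

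Pdgfrb encodes the PDGF receptor that recruits and maintains pericytes and vascular smooth muscle. It had a count of 89 in replicate 1 and 1290 in replicate 2, and its nuclear TPM was 2.92 (2.34 to 3.59) and 32.1 (30.4 to 33.9). The fold of 10.7 (8.65 to 13.5) was the largest among the 10 genes. Pdgfrb also had the highest GC content of them, 55.0%, and without the trend the log2 ratio fell from 3.42 to 1.05 (0.75 to 1.39). That interval reaches below the 2-fold minimum, and the gene was not called when the GC content of the deposited transcripts was used for the trend (log2 ratio 0.88).

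The relation between the receptors therefore depended on the library. Pdgfra stood 13.4 times above Pdgfrb by nuclear TPM in replicate 1 (95% interval 10.8 to 16.8). In replicate 2 the ratio was 0.852 (0.788 to 0.920), with Pdgfrb the higher. Tcf21 stood at 0.0760 of Pdgfra in replicate 1 and at 0.644 in replicate 2. Among the ligands, Pdgfd, which activates the beta receptor, had counts of 4369 and 1684 and nuclear TPM of 263 and 85.2, and Pdgfb, the classical pericyte-recruiting ligand of endothelium, had counts of 15 and 536 and nuclear TPM of 0.972 and 25.5. Pdgfd was called lower (0.285-fold), as was Pdgfc (0.491-fold, counts of 294 and 195), and Pdgfb was called higher (26.5-fold). Pdgfa, a ligand of the alpha receptor, was not called, at counts of 253 and 305. The 4 ligands thus gave 1 call higher, 2 lower and 1 not called, with a median log2 ratio of -0.59. Without the GC trend 0 were higher, and the 1 lower was Pdgfa at a log2 ratio of -3.57, or -1.98 with the GC content of the deposited transcripts.

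The matrix genes Dcn, Lum and Postn held 786 of the summed nuclear TPM of 1019 of the 10 genes in replicate 1, and 342 of 679.6 in replicate 2. Dcn encodes decorin, a small leucine-rich proteoglycan that binds collagen fibrils, and lies on chromosome 10 from 97479609 to 97518143. Its counts were 4564 and 3143, its deposited TPM 83.38 and 150.83, and its nuclear TPM 477 and 245. It was the highest of the 10 genes in each library, and ranked 341 among nuclear genes in replicate 1 and 680 in replicate 2. The fold was 0.510 (0.487 to 0.534), just short of the minimum. Taking out the GC trend turned the sign, from a log2 ratio of -0.97 to 0.92, also short of the minimum.

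Lum encodes lumican, a proteoglycan of the same family, and begins 47.0 kb beyond the end of Dcn, from 97565128 to 97572703 on the same strand. It had counts of 1160 and 512 and a nuclear TPM of 106 and 35.3. The fold was 0.327 (0.294 to 0.363), and without the GC trend the log2 ratio moved from -1.61 to 0.01 (-0.15 to 0.16). The next genes of the cluster, Kera, encoding keratocan of the cornea, and Epyc, encoding epiphycan of cartilage, had counts of 0 and 0 and of 4 and 2. Expression within the cluster was thus read from its Dcn and Lum end in both libraries. Dcn stood 4.50 times above Lum by nuclear TPM in replicate 1 (4.22 to 4.81) and 6.93 times in replicate 2 (6.31 to 7.63).

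Postn lies on chromosome 3 from 54361109 to 54391037. Its counts were 2157 and 1281 and its nuclear TPM 204 and 62.2. The fold by counts was 0.440 (0.410 to 0.471), and the log2 ratio went from -1.18 to 0.44 when the GC trend was removed, a turn of sign with no call. Deposited TPM was nearly level, at 35.68 and 38.34.

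Other small leucine-rich proteoglycans were called in both directions. Of 10 further family members, 8 were tested, 3 were called higher (Prelp, Fmod and Podn) and 4 lower (Ogn, Omd, Aspn and Ecm2), with a median log2 ratio of -0.71. Without the GC trend 0 of the 8 were called in either direction and the median was -0.15. Ogn, encoding osteoglycin, had counts of 8173 and 1891 and nuclear TPM of 598 and 105, which was above Dcn in replicate 1 and below it in replicate 2. Bgn, encoding biglycan, the closest relative of decorin, was not called, with counts of 3924 and 6384 and nuclear TPM of 322 and 374. The ratio of Bgn to Dcn was 0.675 (0.646 to 0.704) in replicate 1 and 1.53 (1.46 to 1.60) in replicate 2. Prelp, at 54.2% GC, went from a nuclear TPM of 16.1 to 55.6, and Omd, at 35.6% GC, from 80.8 to 12.3.

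**Figure D3:**
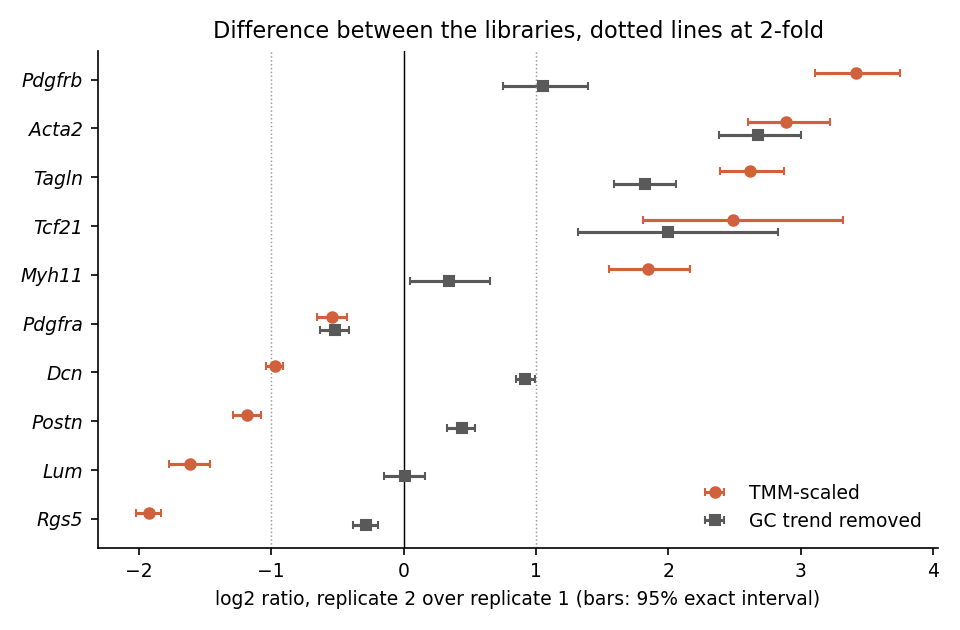
Log2 ratio of replicate 2 over replicate 1 for the 10 genes, TMM-scaled (orange circles) and with the GC trend removed (grey squares), with 95% exact intervals and dotted lines at 2-fold. Acta2, Tagln and Tcf21 stay beyond 2-fold on both scales, while Dcn goes from -0.97 to 0.92.

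Acta2, which encodes the actin of contractile smooth muscle and of activated fibroblasts, lies on chromosome 19 from 34241090 to 34255590, on the minus strand. It had a count of 97 in replicate 1 and 978 in replicate 2. Its nuclear TPM was 10.5 (8.48 to 12.8) and 79.9 (75.0 to 85.1), intervals far apart. The fold was 7.47 (6.06 to 9.30), with an adjusted p of 6.81e-131 in the exact binomial test. Taking out the GC trend left the log2 ratio at 2.68, with a lower 95% bound of 2.38, against 2.89 before, the largest of the 10 on that scale.

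Tagln encodes transgelin, a calponin-family protein bound to smooth muscle actin filaments, and lies on chromosome 9 from 45929619 to 45936058, on the minus strand. Its counts were 165 and 1375, and its nuclear TPM 20.3 and 128. The fold was 6.17 (5.25 to 7.30), and the log2 ratio 2.62 before and 1.82 (1.59 to 2.06) after removal of the GC trend. Tagln overlaps Pcsk7 on the opposite strand, which had counts of 20 and 524, and the M21 antisense gene Gm48529 matches 404 bases of it. Whether the counting used strand is not given in the sources used here, so reads of such partners cannot be told apart.

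Myh11 encodes the smooth muscle myosin heavy chain, the most restricted of the contractile markers, and lies on chromosome 16 from 14194535 to 14291372, on the minus strand. It had counts of 111 and 541 and a nuclear TPM of 2.97 (2.45 to 3.58) and 10.9 (10.0 to 11.9). The fold was 3.61 (2.94 to 4.47). Without the GC trend, which is steep at its 53.2% GC, the log2 ratio went from 1.85 to 0.34 (0.05 to 0.65) and the call was lost. Acta2, Tagln and Myh11 summed to a nuclear TPM of 33.7 in replicate 1 and 219 in replicate 2. Tagln stood above Acta2 in both libraries, by 1.94 times (1.50 to 2.52) and 1.60 times (1.48 to 1.74), and these intervals overlap. Acta2 stood above Myh11 by 3.52 times (2.65 to 4.66) and 7.32 times (6.58 to 8.14), which do not.

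Further contractile and smooth muscle regulatory genes, 15 in all with 14 tested, gave 9 calls higher, 1 lower (Cald1) and 4 not called, with a median log2 ratio of 2.17. On the scale without the GC trend 5 were higher (Myl6, Flna, Smtn, Myl9 and Des), 2 lower (Mylk and Srf) and 7 not called, and the median was -0.17. Among all genes tested, 36.4% were called higher and 27.8% lower, and 13.5% and 12.6% without the trend. Myl6, a myosin essential light chain found in smooth muscle and in other cells, had counts of 116 and 4132 and nuclear TPM of 41.8 and 1131. Cald1, encoding the actin-binding protein caldesmon, went from 215 to 82.4. Tpm1, encoding a tropomyosin, was nearly level at 413 and 390.2, and Flna, encoding filamin A, went from 20.4 to 136. Kcnmb1, the smooth muscle BK channel subunit, was the lowest of the list by mean nuclear TPM, with counts of 26 and 18. Myl9, the smooth muscle regulatory light chain, had counts of 8 and 804 and a log2 ratio of 6.13 before and 2.90 after the trend was removed. Des, encoding desmin, had counts of 20 and 572 and log2 ratios of 4.37 and 2.02. Not all genes of the list kept a higher ratio. Cnn1, Lmod1 and Tpm2 were called higher before but not after, at log2 ratios of -0.35, 0.26 and -0.50 after. Srf went from 4.15 to -1.35, and Mylk, not called before, was at -1.76.

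Of 5 skeletal muscle markers 5 were called higher, and 3 without the GC trend (Acta1, Ckm and Mylpf), beside 36.4% and 13.5% of all genes tested. The 5 markers had a nuclear TPM sum of 63.3 in replicate 1 and 523 in replicate 2. Acta1 had counts of 7 and 1211, so the ratio of Acta2 to Acta1 by nuclear TPM was 10.8 (5.03 to 27.5) in replicate 1 and 0.631 (0.579 to 0.687) in replicate 2. The heart muscle list was at or near 0, with a summed nuclear TPM of 0.114 and 4.64, Myh6 and Nppa at counts of 0 in both libraries and Actc1 at counts of 1 and 6. Actg2, the enteric smooth muscle actin, had counts of 6 and 13. The cytoplasmic actins Actb (nuclear TPM 393 and 1091) and Actg1 (380.3 and 903) were called higher, at log2 ratios of 1.44 and 1.99, but had log2 ratios of -0.62 and -0.44 without the GC trend. The adipocyte list also had a higher sum, 2640 and 4965. The part of muscle or fat RNA in the Acta2 and Tagln ratios was not tested.

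Rgs5 encodes a regulator of G-protein signalling enriched in pericytes, and lies on chromosome 1 from 169655501 to 169695813, on the plus strand. It had counts of 3491 in replicate 1 and 1244 in replicate 2 and a nuclear TPM of 154 (149 to 159) and 41.4 (39.1 to 43.8). Its fold of 0.264 (0.247 to 0.282) was the lowest of the 10 genes. Removal of the GC trend brought the log2 ratio from -1.92 to -0.28 (-0.38 to -0.19). Rgs5 and Pdgfrb, which share pericytes as a source, thus lay on opposite sides of 0, both before and after the trend was removed. Their ratio by nuclear TPM was 52.8 (42.8 to 66.0) in replicate 1 and 1.29 (1.19 to 1.39) in replicate 2. The family member Rgs4 had nuclear TPM of 123 and 69.6, so Rgs5 was 1.25 times Rgs4 in replicate 1 and 0.595 times in replicate 2, and Rgs2 had 600.0 and 212.

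Of 10 further pericyte genes 9 were tested, with 7 called higher, 1 lower (Angpt1) and 1 not called, and a median log2 ratio of 2.16. Without the GC trend 1 was higher (Cspg4), 1 lower (Notch3) and 7 not called, with a median of -0.05. The shares of all genes tested were 36.4% higher and 27.8% lower, and 13.5% and 12.6% without the trend. The call of Cspg4 had an adjusted p of 0.044 in the exact binomial test, and it was lost with the GC content of the deposited transcripts. Abcc9 and Kcnj8 encode the subunits of the pericyte ATP-sensitive potassium channel. Abcc9 had nuclear TPM of 28.9 and 17.3 and was not called, and Kcnj8 had 4.80 and 12.8 and was called higher. Mcam, encoding a mural and endothelial adhesion molecule, went from 10.1 to 44.1, and Angpt1, encoding the mural ligand of the endothelial receptor Tie2, from 14.9 to 3.55. Vtn, the lowest of the list by mean nuclear TPM, had counts of 2 and 19. The 6 endothelial markers summed to a nuclear TPM of 548 and 573. Of them 4 were called higher and 1 lower (Emcn), and 0 were called without the GC trend.

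Fibroblast genes outside the collagens, 15 in all and all tested, gave 10 calls higher and 0 lower, with a median log2 ratio of 3.21. Over all genes tested, 36.4% were called higher and 27.8% lower. The list had a median GC content of 55.8%, and all tested genes near 55% GC had a median log2 ratio of 2.37. Without the GC trend 5 of the list were higher (Gsn, Pi16, Thy1, Clec3b and Htra3), 1 was lower (Fbn1) and 9 were not called, with a median of 0.23. Of all genes tested, 13.5% were then called higher and 12.6% lower. The call of Thy1 was lost with the GC content of the deposited transcripts (log2 ratio 0.70). That of Clec3b was lost with GC and length trends removed together (adjusted p of 0.084 in the exact binomial test). Gsn, encoding the actin-severing protein gelsolin, had counts of 316 and 11696 and nuclear TPM of 22.1 and 622. Clec3b, encoding tetranectin, had a count of 0 in replicate 1 and 174 in replicate 2. Ly6a had nuclear TPM of 115 and 143, Cd34 of 104 and 57.6 and Dpt, encoding dermatopontin, of 26.2 and 19.7, and none of them was called. Mfap4, a microfibril-associated gene, was the lowest of the list by mean nuclear TPM, with counts of 8 and 112.

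Transcriptional and signalling regulators of mesenchyme, 10 genes of which 9 were tested, gave 1 call higher (Osr2), 6 lower and 2 not called, with a median log2 ratio of -1.23. The calls lower numbered 3 with nuclear-count scaling and 0 with total-count scaling, beside 2978 and 567 over all genes tested. After removal of the GC trend 0 were higher and 5 lower (Nr2f1, Nr2f2, Wt1, Tbx18 and Twist1), where 12.6% of all genes tested were called lower. The median was -1.36, beside -0.03 for all genes tested. Nr2f1, with counts of 127 and 149, was called only after removal, at -2.16 against -0.20 before. Twist1, with counts of 101 and 62, went from -1.13 to -5.44. Wt1 went from -1.23 to -2.95 on counts of 30 and 17. Meis2, a homeobox factor, had nuclear TPM of 396 and 179. Nr2f2, the orphan nuclear receptor COUP-TFII, had counts of 3410 and 1186 and nuclear TPM of 162 and 51.3, and log2 ratios of -1.96 before and -1.37 after the trend was removed. Rspo3, the R-spondin secreted by the capsule that sustains Wnt signalling in the outer cortex, had nuclear TPM of 93.6 and 29.8 and was called lower before but not after. Meis1 had 42.1 and 30.4, and Osr1 was the lowest of the list by mean nuclear TPM, with counts of 1 and 11.

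**Figure D4:**
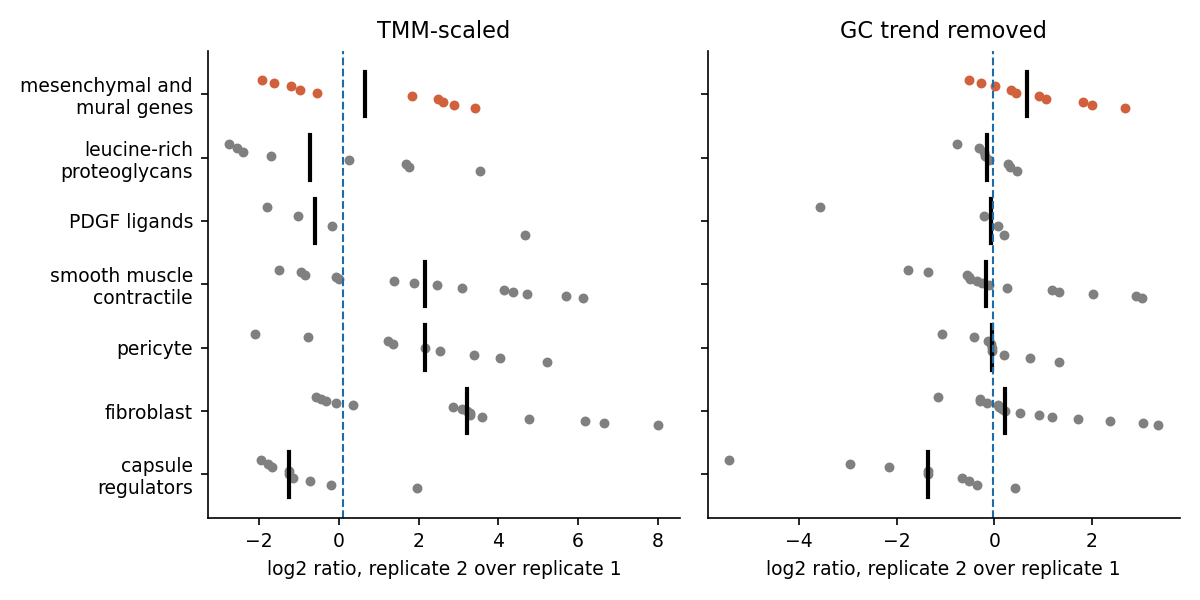
Log2 ratio of replicate 2 over replicate 1 for each tested gene of the lists, TMM-scaled on the left and with the GC trend removed on the right; each point is a gene, the black bars are list medians and the dashed line is the median of all genes tested. The fibroblast median goes from 3.21 to 0.23, while that of the capsule regulators is -1.23 on the left and -1.36 on the right.

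The order of the 10 genes by nuclear TPM differed between the libraries. In replicate 1 it ran Dcn, Postn, Rgs5, Lum, Pdgfra, Tagln, Acta2, and then Tcf21, Myh11 and Pdgfrb, whose counting intervals overlapped. In replicate 2 it ran Dcn, Tagln, Acta2, Postn, Rgs5, Lum, Pdgfrb, Pdgfra, Tcf21 and Myh11, and among neighbours the intervals overlapped for Lum and Pdgfrb. Dcn stood 45.6 times above Acta2 in replicate 1 (37.3 to 56.3) and 3.06 times in replicate 2 (2.85 to 3.29). The mean deposited TPM over both libraries was 117 ± 47.7 for Dcn, 41.2 ± 53.3 for Tagln, 37.0 ± 1.88 for Postn, 26.2 ± 1.01 for Rgs5, 25.5 ± 33.5 for Acta2 and 20.1 ± 2.30 for Lum (SD, n = 2 technical libraries). It was 11.9 ± 7.09 for Pdgfra, 10.2 ± 13.6 for Pdgfrb, 5.69 ± 7.31 for Tcf21 and 3.62 ± 4.39 for Myh11 on the same scale. For Tagln, Acta2, Pdgfrb, Tcf21 and Myh11 the SD was larger than the mean. The small SDs of Postn, Rgs5 and Lum hold for deposited TPM only. By nuclear TPM these genes were at 133 ± 100.2, 97.7 ± 79.7 and 70.6 ± 49.9.

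Isoform shares, which are the deposited percentages of a gene's TPM, were informative for Dcn and Postn. Dcn had 2 transcripts counted, Dcn-201 of 1886 bases and Dcn-202 of 1794 bases. Dcn-201 held 45.97% in replicate 1 and 71.36% in replicate 2, and Dcn-202 held 54.03% and 28.64%. By deposited TPM, Dcn-201 went from 38.33 to 107.62, while Dcn-202 was at 45.05 and 43.2. The deposited interval bounds belong to the posterior mean TPM, a separate estimate. They were 33.1 to 42.0 and 93.1 to 107 for Dcn-201, and 38.7 to 48.1 and 33.9 to 47.0 for Dcn-202. The other transcript thus became the leading one in replicate 2, with no test of the difference. Acta2, Lum, Myh11, Tagln and Tcf21 had 1 transcript each, and the leading transcript held at least 99.79% of Rgs5, with 2 transcripts, and all of Pdgfrb by the deposited share. By posterior means, Pdgfrb-201 held 80.94% of Pdgfrb in replicate 1, at a count of 89, and 98.19% in replicate 2.

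Postn had 9 transcripts in the release used for the deposited tables, matched to M21 by identifier. The 4 full-length ones held 46.8% of the gene's TPM in replicate 1 and 85.1% in replicate 2. Postn-205, which retains an intron, held 26.18% in replicate 1 and 0.01% in replicate 2, with expected counts of 220.86 and 0.04, and the partial transcript Postn-206 held 21.54% and 9.74%. Among the full-length transcripts, those with exon 17 (printed above, present in Postn-202 and Postn-203) made up 46.1% of TPM in replicate 1 and 37.1% in replicate 2. Those with exon 21 (present in Postn-201 and Postn-202) made up 27.4% and 23.2%. Postn-202, which has both exons, made up 1.0% in each library, and Postn-204, which has neither, 27.5% and 40.6%. The transcript-weighted length of Postn was 2009 bases in replicate 1 and 2867 in replicate 2, which enters its TPM but not its count.

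**Figure D5:**
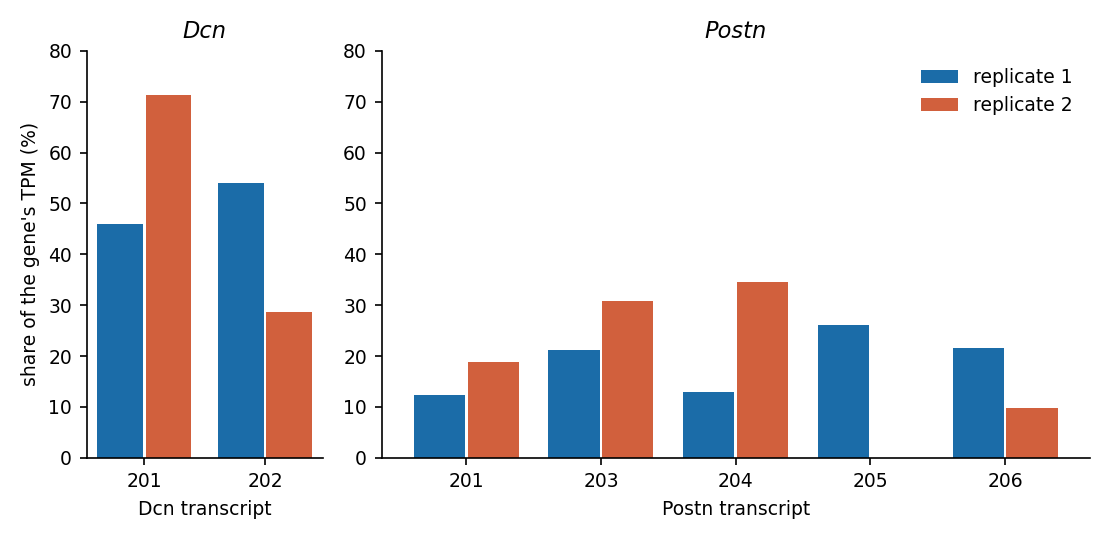
Deposited share of each gene's TPM held by the transcripts of Dcn (left) and Postn (right) with at least 5% in either library, for replicate 1 (blue) and replicate 2 (orange). Dcn-201 goes from 45.97% to 71.36%, and Postn-205 from 26.18% to 0.01%.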

How the data were processed

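Gene and transcript tables of 2 technical libraries were used; per the deposited notes, reads were placed on mm10 with GENCODE M4, with the aligner and counting program not given in the sources used here. The authors deposited expected counts (estimated fragments), TPM, FPKM, posterior mean TPM with interval bounds (read as a score with no fixed total) and the percent share of each transcript. Symbols, GC content and coordinates came from GENCODE M21 on GRCm38, the same build as mm10. Expected counts were rounded and compared by a two-sided exact binomial test with TMM library sizes (edgeR 4.0.16), where both counts summed to 20 or more, with Benjamini-Hochberg adjustment (statsmodels 0.14.6 for the lowess trend, fraction 0.3). The test compares the libraries and measures counting error only (intervals at 95%). It was run on simulated counts that held counting error, a straight GC trend and changes well above 2-fold. Those counts held no other spread between libraries, so they do not bear on calls near the 2-fold minimum. FPKM and posterior means served as alternatives, as did DESeq2 1.42.0 size factors. Log2 ratios use a prior count of 0.5. The 10 genes and all lists were chosen with earlier results of these data known. Named genes are the 10, up to 4 highest and the 1 lowest of each further list by mean nuclear TPM, and all actin paralogs; genes behind counts of 5 or fewer were named after their values were seen.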

Additional observations from a re-analysis of the deposited data

How the results depend on the processing

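Tcf21, Acta2 and Tagln kept their direction and their call under all 10 alternatives to the comparison of the libraries. Of the 10 genes, 8 were called. The number was 5 with total-count scaling, 4 with the GC trend removed, 4 with GC and length trends removed together and 3 with the GC of the deposited transcripts. Over all genes tested, 5232 were called higher and 3987 lower. Under the same 4 alternatives, in that order, these were 7769 and 567, 1937 and 1815, 1732 and 1862, and 1722 and 1644. Calls lower among the 10 numbered 3, against 0 under each of those 4 alternatives and 5 with no fold minimum. They were 2 with nuclear-count scaling, where Postn lost its call at -0.90, and 4 with DESeq2 size factors or the length trend removed, where Dcn gained one at -1.03 and -1.67. Over all genes tested, calls lower numbered 2978 with nuclear-count scaling and 4173 with DESeq2 size factors. They numbered 4847 with the length trend removed and 6002 with no fold minimum. Calls higher among the 10 numbered 5, against 3 with the GC of the deposited transcripts. The median TPM of the 10 was 22.8, against 57.9 when rescaled over nuclear genes and 5.2 to 23.6 when 1 library was left out. At a minimum TPM of 1, both libraries held 7 of the 10, and 7 to 10 under the alternatives. The median share of the leading transcript was 100 percent, and 99.7 from posterior means. No paired analysis was possible because there is 1 group only. The cause of these changes was not tested.

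The following log2 ratios changed sign. With total-count scaling they were Pdgfra 0.59, Dcn 0.16, Pdgfa 0.97, Pdgfc 0.11, Tpm1 1.06, Kcnmb1 0.18, Abcc9 0.37, Dpt 0.69, Cd34 0.56, Meis1 0.42, Rgs2 0.21, Rgs4 0.27, Mylk 1.13, Fbn1 1.06, Nr2f1 0.93 and Twist1 0.00. With nuclear-count scaling, which moved the median of all genes by 0.28, they were Pdgfa 0.12, Tpm1 0.21, Mylk 0.28, Fbn1 0.21 and Nr2f1 0.08. With the GC trend removed they were Dcn 0.92, Lum 0.01, Postn 0.44, Bgn -0.76, Prelp -0.19, Pdgfd 0.07, Mcam -0.07, Vtn -0.04, Cd34 0.08, Meis1 0.43, Actb -0.62, Actg1 -0.44, Rgs2 0.26, Rgs4 0.33, Fmod -0.32, Aspn 0.32, Ecm2 0.29, Srf -1.35, Notch3 -1.08, Osr2 -0.35 and Tagln2 -1.35. With the length trend removed, which moved the median by -0.34, they were Bgn -0.25, Ly6a -1.21, Mylk 0.48 and Fbn1 0.52. With GC and length trends removed together they were Dcn 0.80, Postn 0.42, Bgn -0.78, Prelp -0.05, Pdgfd 0.11, Mcam -0.03, Abcc9 0.15, Angpt1 0.15, Vtn -0.44, Ly6a -0.03, Cd34 0.05, Meis1 0.50, Actb -0.72, Actg1 -0.66, Rgs2 0.15, Rgs4 0.38, Fmod -0.24, Aspn 0.30, Ecm2 0.42, Srf -1.17, Notch3 -0.80, Osr2 -0.50 and Tagln2 -1.56. With the GC of the deposited transcripts they were Pdgfra 0.01, Dcn 0.51, Postn 0.22, Bgn -0.92, Prelp -0.13, Pdgfb -0.03, Pdgfd 0.04, Abcc9 0.05, Meis1 0.17, Rgs2 0.11, Rgs4 0.38, Fmod -0.13, Aspn 0.28, Ecm2 0.16, Srf -2.09, Notch3 -1.16, Osr2 -1.78 and Tagln2 -0.82. Differences of the size seen for Vtn, with counts of 2 and 19, are limited by depth.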

Other observations

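Paralogs of the 10 genes, the actins and Rgs genes included, gave further counts. Of 20 paralogs 14 were tested, 10 were called higher and 0 lower, with a median log2 ratio of 2.05. Without the GC trend 2 were higher (Acta1 and Myh9) and 1 was lower (Tagln2). All genes tested had 36.4% called higher and 27.8% lower, and 13.5% and 12.6% without the trend. With the GC content of the deposited transcripts, Myh9 (log2 ratio 0.28) and Tagln2 (-0.82) were not called. Myh9, the non-muscle myosin heavy chain, had counts of 408 and 6488. Msc, a basic helix-loop-helix factor related to Tcf21, had counts of 1 and 0.

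Mesothelial cells line the abdominal cavity and cover its organs. The 6 mesothelial markers summed to a nuclear TPM of 8.57 in replicate 1 and 13.8 in replicate 2, with Krt19 at a count of 0 in replicate 1. Of the 4 tested, 2 were called higher (Msln and Upk3b), and without the GC trend 1 was called lower (Lrrn4). The 5 macrophage markers summed to 24.8 and 227, with 4 called higher, and without the GC trend 1 was called higher (C1qb). The 5 Schwann and glial markers summed to 15.8 and 19.8, with Sox10 at a count of 0 in replicate 1 and 35 in replicate 2.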
